A study of Caenorhabditis elegans with 20 samples.

Results

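In worms whose histone H3.3 carries the K27M mutation, 3 features were followed along the genome of a single strain: the repressive mark H3K27me3, the mark of transcribed chromatin H3K36me3, and the oncohistone H3.3K27M itself. K27M replaces with methionine the lysine on which Polycomb repressive complex 2 (PRC2) acts. The strain, here H3.3K27M, carries the change at the endogenous gene, his-72(uge40[K27M]) III, without a tag. Its libraries were taken by their strain label and comprised 4 of the 20 in the study, an IP and an input for each of the marks. The study profiled C. elegans strains by native ChIP-seq, that is, without crosslinking the chromatin before its digestion with MNase and precipitation. All worms were harvested as adults after growth at 20 °C, and the starting material was total nuclei with an enrichment for those of germ cells. Somatic nuclei were therefore present as well, and the signals of the cell types cannot be told apart. The antibody for H3K27me3 also recognises the dimethylated residue.

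The oncohistone was represented by a track that carries the names of the strain and of the protein but matched no listed library. The study's protocol names an antibody against the mutant histone, and the assignment rests on the track's name alone. Its pattern was therefore set beside that of an independent strain, H3.3K27M OLLAS, in which the mutant histone of the endogenous locus (allele uge79 of his-72) carries an OLLAS epitope tag and was precipitated through it. For the same division without the mutation, the marks of the wild type and the tagged histone of H3.3 OLLAS, his-72(uge69[OLLAS::his-72]) III, were used. Of the 27 deposited tracks, 14 entered the analysis, and 8 of these 14 belong to the H3.3K27M strain. Each group held 1 library, so no value below has a replicate error and no test between conditions was possible.

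PRC2 methylates lysine 27 of histone H3, and its trimethylated form covers silent chromatin in broad domains. In the C. elegans germ line the X chromosome is largely silent and rich in this mark. H3K36me3 is deposited over the bodies of transcribed genes, and in the germ line also maintained from one generation to the next by the methyltransferase MES-4. H3K27me3 and H3K36me3 are known to occupy largely separate chromatin, because PRC2 works poorly on nucleosomes that carry H3K36me3. H3.3 is a histone variant that is deposited outside replication, at sites of nucleosome turnover and transcription. K27M histones are known to impair PRC2.

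The genome was cut into 10024 complete bins of 10 kb, 8253 on the 5 autosomes and 1771 on X. The marks were read from the deposited log2 IP over input tracks in 10 kb bins, and the oncohistone as the mean of the 1 kb bins. For the marks, a value above 0 says that IP exceeded input in a bin after scaling. For the oncohistone it says that the mean of the log2 ratios of the 1 kb bins was above 0, which can differ in sign from the ratio of summed reads. Since the tracks were scaled to equal read numbers, 0 is not an absence of the mark, and the values describe distribution and not amount. Depth was recovered from the input-subtracted tracks. The median per 100 bp was 113 IP reads and 234 input reads for H3K27me3, 33 and 24 for H3K36me3, and 61 and 61 for the oncohistone. H3K36me3 was the shallowest of the 3, and 21 bins were at exactly 0 in at least 1 track.

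H3K27me3 separated X from the autosomes, and the oncohistone did so far less. The median H3K27me3 was 1.18 on X (quartiles 1.12 to 1.24) and -1.29 on the autosomes (quartiles -1.98 to 0.15). It stood above 0 in 98.9% of X bins (1751) and in 27.2% of autosomal bins (2247), against 39.9% of all bins. X was not only high but even, with an SD over bins of 0.294 compared with 1.18 on the autosomes. For H3K36me3 the median was -0.48 on X and -0.13 on the autosomes, with 15.4% and 43.8% of bins above 0 against 38.8% of all bins. For the oncohistone the medians were -0.11 on X and -0.0027 on the autosomes. The oncohistone stood above 0 in 28.1% of X bins and 49.4% of autosomal bins, against 45.6% of all bins. With the input-subtracted tracks these shares were close, at 71.8% of X bins and 73.2% of autosomal bins. The X to autosome gap was thus 2.47 for H3K27me3, -0.36 for H3K36me3 and -0.10 for the oncohistone on the log2 scale. The OLLAS track of H3.3K27M OLLAS was set lower on X than the oncohistone track. Its medians were -0.30 on X and -0.05 on the autosomes, with 25.5% and 45.7% of bins above 0.

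**Figure D1:**
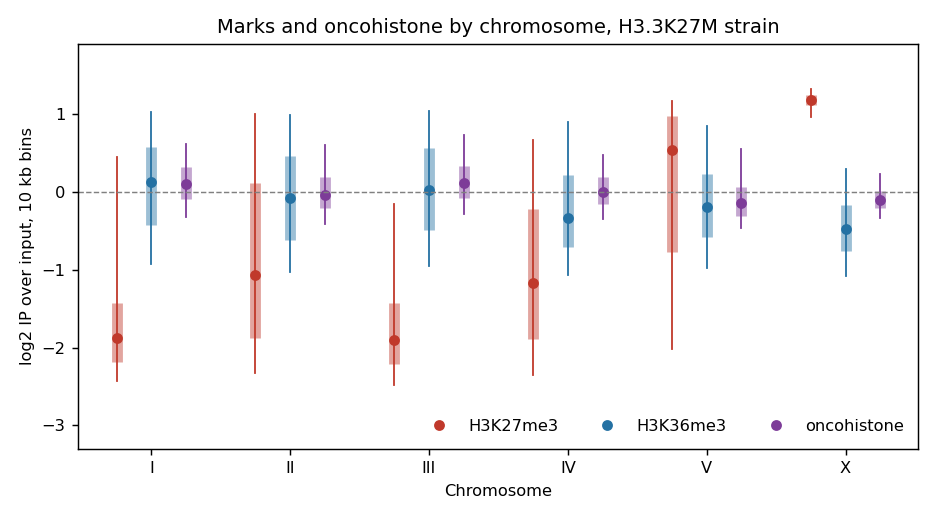
Log2 IP over input in 10 kb bins (y axis) by chromosome (x axis) for H3K27me3, H3K36me3 and the oncohistone in H3.3K27M. Points are medians over bins, thick bars quartiles, and thin lines the range from the 5th to the 95th percentile of bins. H3K27me3 is high and narrow on X (median 1.18), intermediate on V (0.53) and lowest on I and III.

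The autosomes were not alike. Chromosome V had a median H3K27me3 of 0.53, with 63.2% of bins above 0. I and III lay at the other end, at -1.88 and -1.90, with 7.70% and 4.50% of bins above 0. II (-1.07) and IV (-1.16) were between them. The oncohistone ran in the opposite order at the ends, highest on III (0.11) and I (0.10) and lowest on V (-0.15), which lay below X. H3K36me3 was highest on I (0.12) and III (0.03), and its lowest autosomal median was on IV (-0.34).

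To see how the features divide the genome, each bin was put in 1 of 8 classes by which of the 3 tracks stood above 0. On the autosomes the largest class combined H3K36me3 with the oncohistone and lacked H3K27me3. It held 1985 bins, or 24.1% (95% Wilson interval 23.1% to 25.0%), against 19.9% of all bins. The class with the oncohistone only followed with 1778 bins (21.5%), against 17.8% of all bins. H3K27me3 only held 1304 bins (15.8%, against 23.3% of all bins) and H3K36me3 only held 941 (11.4%, against 9.41%). Another 1302 autosomal bins (15.8%, against 13% of all bins) were above 0 in none of the tracks. Intervals here and below cover counting error only, and neighbouring bins are not independent.

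Among the autosomal classes, those that joined H3K27me3 with the oncohistone were small. H3K27me3 and the oncohistone stood above 0 together in 314 autosomal bins, or 3.80%, against 7.91% of all bins. Of these, 59 bins (0.715%) were above 0 in H3K36me3 too. Of the 2247 autosomal bins with H3K27me3 above 0, 86.0% had the oncohistone at or below 0, and 69.4% had H3K36me3 at or below 0. Conversely, 92.3% of the autosomal bins with the oncohistone above 0 had H3K27me3 at or below 0. With the input-subtracted tracks, the first and the last of these shares were 61.8% and 85.3%. Over all autosomal bins, the oncohistone stood above 0 in 49.4%, H3K36me3 in 43.8% and H3K27me3 in 27.2%. For H3K36me3 the chromosomes differed. On I it was above 0 in 66.4% of bins with H3K27me3 above 0 and in 55.6% of the others. The same shares were 43.8% and 47.0% on II, and 45.2% and 51.6% on III. They were 11.3% and 38.4% on IV, and 27.6% and 52.7% on V. With the input-subtracted tracks the oncohistone stood above 0 in 73.2% of all autosomal bins. The classes with H3K27me3 above 0 then held 7.69%, 9.72%, 6.80% and 3.97%. In the 314 shared bins the OLLAS track of H3.3K27M OLLAS was above 0 in 161 (51.3%), near its share of 45.7% over all autosomal bins. The shared bins made up 10.8% of the autosomes in place of 3.80% where the sign was taken from the input-subtracted tracks, 10.4% with each track split at its own median, and 1.11% without bins within 0.25 of 0 in any track.

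On the autosomes H3K27me3 and H3K36me3 were above 0 together more often (688 bins) than H3K27me3 and the oncohistone (314). This order depended on how the oncohistone was read. With recovered reads for the oncohistone alone it was turned. H3K27me3 with H3K36me3 but without the oncohistone then held 6.34%, and H3K27me3 with the oncohistone but without H3K36me3 held 8.09%. With recovered reads for all 3 tracks these classes held 9.71% and 6.77%, and with the input-subtracted tracks 9.72% and 6.80%. The class with both marks but without the oncohistone held 629 autosomal bins (7.62%, against 8.63% of all bins), of which 343 were on V. V also held 1322 of the 2247 autosomal bins with H3K27me3 above 0. H3K36me3 was above 0 in 27.6% of these V bins, against 30.6% over the autosomes, so the class was not particular to V. The 629 bins were not weak in the repressive mark. Their median H3K27me3 of 1.01 was higher than the 0.70 of the bins with H3K27me3 only. Their median oncohistone level of -0.34 was the lowest of the 8 autosomal classes, and the OLLAS track was lowest there too, at -0.81. In the wild type the same bins had a median H3K36me3 of 0.47 and H3K27me3 of 0.42. The longest run of the class covered 250 kb on the right arm of V, from 17130001 to 17380000 (build WBcel215, as all positions here), with medians of 1.19 for H3K27me3, 0.69 for H3K36me3 and -0.33 for the oncohistone. Whether both marks were on the same nucleosomes or in different cells of the preparation cannot be told apart.

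On X the division took another form, because H3K27me3 was nearly constant and the other tracks split the bins. H3K27me3 only was the largest class, with 1036 bins or 58.5% (95% Wilson interval 56.2% to 60.8%). H3K27me3 with the oncohistone held 453 bins (25.6%, against 7.06% of all bins), and H3K27me3 with H3K36me3 held 236 (13.3%). All 3 were above 0 in 26 bins (1.47%, against 0.848% of all bins). No X bin was without any of the 3 (upper Wilson bound 0.216%, for counting error only). These shares depend on where 0 lies. With the input-subtracted tracks, H3K27me3 only held 13.7% of X, and H3K27me3 and the oncohistone were above 0 together in 70.8% in place of 27.05%. With the log2 ratio of recovered reads the values were 13.8% and 70.7%. With recovered reads for the oncohistone alone they were 20.3% and 70.7%, and for H3K36me3 alone H3K27me3 only held 45.8%.

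**Figure D2:**
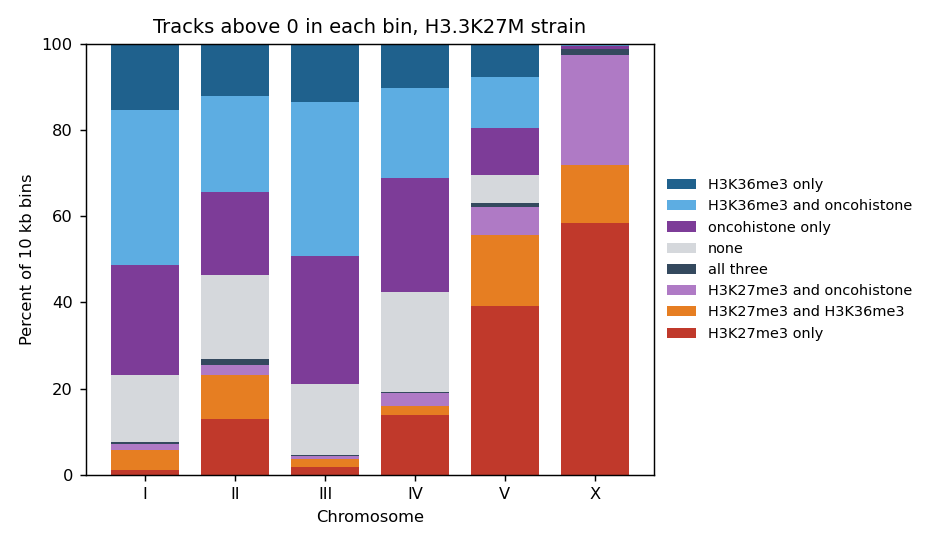
Percent of 10 kb bins (y axis) in each of the 8 classes, by chromosome (x axis), in H3.3K27M; colours give which tracks were above 0. The classes without H3K27me3 fill most of I and III, whereas H3K27me3 only holds 39.2% of V and 58.5% of X.

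Within X, the oncohistone was above 0 in 497 bins, of which 96.4% were also above 0 in H3K27me3, slightly below the 98.9% of all X bins. Of the autosomal bins with the oncohistone above 0 it was 7.70%, below the 27.2% of all autosomal bins. X bins with the oncohistone above 0 had a median H3K27me3 of 1.12, and those at or below 0 had 1.21. The shared X bins had a median oncohistone level of 0.09 and were above 0 in the OLLAS track in 70.2% of the class without H3K36me3. Of all X bins, 25.5% were above 0 in the OLLAS track. H3K36me3 was above 0 in a smaller share of the X bins with the oncohistone above 0 than of the others. The shares were 34 of 497 (6.84%) and 238 of 1274 (18.7%), and 23.8% and 51.3% with the input-subtracted tracks. On that scale 71.8% of X bins had the oncohistone above 0, so that most X bins above 0 in H3K36me3 were above 0 in the oncohistone as well (16.4% of X in all 3 tracks, against 14.4% in both marks only).

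The tracks were next compared as continuous values. Over the autosomal bins, Pearson r was -0.55 between H3K27me3 and the oncohistone, -0.38 between H3K27me3 and H3K36me3, and 0.061 between H3K36me3 and the oncohistone. Over X bins the values were -0.37, -0.097 and -0.39 in the same order. These are descriptions over 8253 and 1771 bins that share libraries and neighbours. A linear fit on the autosomes gave an R2 for H3K27me3 of 0.299 from the oncohistone, 0.148 from H3K36me3 and 0.423 from both. With the input-subtracted tracks, the autosomal r was -0.11 between H3K27me3 and H3K36me3 and -0.036 between H3K36me3 and the oncohistone. On X the R2 from both was 0.202.

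The relation between H3K27me3 and H3K36me3 on X changed sign with the way it was measured. It was -0.097 as Pearson r of the log2 tracks, 0.30 as Pearson r of the input-subtracted tracks, 0.077 as Spearman rho, and 0.093 as Pearson r without the first 29 bins (bases 1 to 290000) of X, which is described below. For H3K27me3 and the oncohistone on X, r was -0.49 without this stretch.

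Chromosomes differed in which of the features went with H3K27me3. On V the oncohistone alone gave an R2 of 0.437 and H3K36me3 alone 0.094. On III and IV the order was turned, with 0.0999 and 0.249 from the oncohistone and 0.243 and 0.318 from H3K36me3, and on I both gave about the same (0.116 and 0.117). The order on IV depended on the track used for the oncohistone. There, r with H3K27me3 was -0.50 for the oncohistone, -0.56 for H3K36me3 and -0.59 for the OLLAS track. On III it was -0.49 for H3K36me3 and -0.36 for the OLLAS track. The R2 from both ranged from 0.233 on I to 0.543 on V. The correlation between H3K27me3 and the oncohistone was negative on each autosome, from -0.32 on III to -0.66 on V.

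Sorting bins by the oncohistone showed the form of the relation. From the lowest to the highest quintile of autosomal bins by the oncohistone, the median H3K27me3 was 0.73, -0.74, -1.46, -1.73 and -1.87. H3K27me3 was above 0 in 72.6% of bins in the lowest quintile and in 2.85% of bins in the highest, against 27.2% of all autosomal bins. Most of the difference lay between the first quintiles, and the upper ones were near each other. On X the medians over the quintiles were 1.25, 1.22, 1.18, 1.15 and 1.11, in the same order and over a far smaller range. By quintiles of H3K36me3, the autosomal medians were -0.63, -0.58, -0.84, -1.81 and -2.19, so that the first 3 were close and the last 2 were lower. On X they stayed between 1.17 and 1.19.

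**Figure D3:**
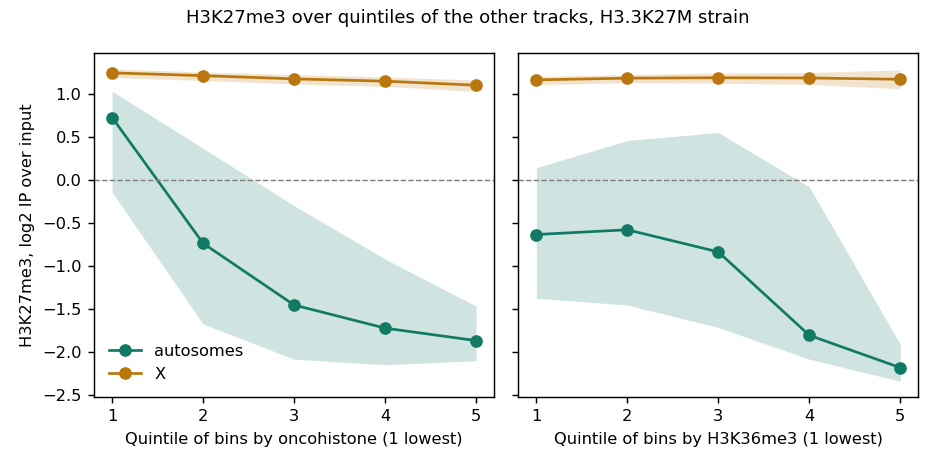
H3K27me3 (y axis, log2 IP over input) in quintiles of the 10 kb bins sorted by the oncohistone (left) or by H3K36me3 (right), autosomes and X apart, in H3.3K27M. Points are medians and bands are quartiles over bins; the autosomal medians run from 0.73 to -1.87 over quintiles of the oncohistone while X stays between 1.25 and 1.11.

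X and the autosomes also differed where their oncohistone level was the same. In bins with an oncohistone level from 0 to 0.1, the median H3K27me3 was 1.14 on X (255 bins) and -1.56 on the autosomes (1045 bins). In bins from -0.4 to -0.3 it was 1.26 on X (125 bins) and 0.75 on the autosomes (624 bins). The gap was thus smaller where the oncohistone was low. At an H3K36me3 level from -0.6 to -0.5 the medians were 1.20 on X (181 bins) and -0.51 on the autosomes (477 bins).

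When the bins were cut into tertiles by both tracks, H3K36me3 went with low H3K27me3 only outside the lowest tertile of the oncohistone. In the middle tertile of the oncohistone, autosomal H3K27me3 had medians of -0.58, -1.16 and -2.18 over rising tertiles of H3K36me3, and in the highest tertile -1.33, -1.79 and -2.13. In the lowest tertile of the oncohistone the order was turned, at 0.14, 0.57 and 0.63. The 633 bins low in the oncohistone and high in H3K36me3 had quartiles of -1.98 and 1.08, so they held bins of very different H3K27me3 level. The 9 cells of X stayed between 1.06 and 1.25.

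**Figure D4:**
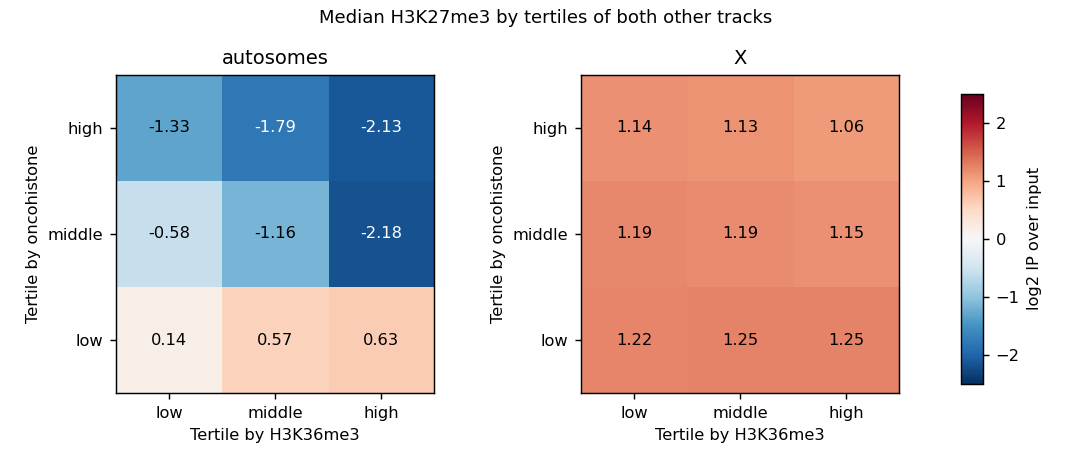
Median H3K27me3 (colour and number, log2 IP over input) of 10 kb bins in tertiles by H3K36me3 (x axis) and by the oncohistone (y axis), autosomes (left) and X (right), in H3.3K27M. Autosomal medians range from 0.63 to -2.18, and those of X from 1.25 to 1.06.

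The size of the domains was taken from the 1 kb tracks. On the autosomes, H3K27me3 above 0 formed 1876 runs with a median of 4 kb and a maximum of 281 kb (V, 16031001 to 16312000). On X it formed 68 runs with a median of 79.5 kb, the longest of 2053 kb (8820001 to 10873000). The longest stretch at or below 0 was 3592 kb on III, from 3055001 to 6647000. Oncohistone runs above 0 were short throughout, with a median of 2 kb on the autosomes and 1 kb on X and maxima of 89 kb (II) and 25 kb. Those at or below 0 had a median of 2 kb on both. The oncohistone varied less around 0, with an SD over autosomal 10 kb bins of 0.309 against 1.18 for H3K27me3. A run ends at each change of sign, so these lengths do not measure the size of oncohistone domains. At 1 kb, r between H3K27me3 and the oncohistone was -0.39 on the autosomes and -0.26 on X.

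At the edges of H3K27me3 domains the oncohistone changed with the mark. Borders were taken where a run above 0 and a run at or below 0, each of at least 10 kb, met. There were 413 such borders on the autosomes, 249 of them on V, and 3 on X, which were not profiled. Over the 10 kb on each side, the oncohistone averaged -0.25 inside and 0.04 outside, and it was lower inside at 379 of 413 borders (91.8%). The OLLAS track of H3.3K27M OLLAS averaged -0.48 inside and -0.04 outside. The oncohistone moved from -0.01 at 2 kb outside to -0.25 at 2 kb inside, so most of its change lay within these few kb. The OLLAS track changed more gradually. It moved from -0.11 to -0.40 over the same stretch, and from 0.01 at 10 kb outside to -0.53 at 10 kb inside. The tagged histone of H3.3 OLLAS, without K27M, had a like profile at the same places, with -0.50 inside and -0.07 outside.

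H3K36me3 had another profile, with a trough at the border. Its input-subtracted signal in scaled reads per 100 bp had a mean of 57.1 ± 4.58 (SE over 413 borders) at 7 kb outside, -24.5 ± 1.92 at 1 kb outside and 6.20 ± 3.68 at 7 kb inside. As log2 of recovered reads the means at these distances were 0.35, -0.49 and -0.13. H3K36me3 was lower inside than outside at 274 of 413 borders (66.3%). The wild type had H3K27me3 above 0 at 1 kb outside these borders (mean 0.29) and at 2 kb (0.07), where H3.3K27M stood at -0.37 and -0.88. The lowest H3K36me3 thus lay where mean H3K27me3 was above 0 in the wild type. That it was below 0 there in H3.3K27M is given by the choice of borders. The low H3K36me3 was not confined to this stretch. Its median over borders was -32.6 at 1 kb outside, -24.9 at 1 kb inside and -14.7 at 7 kb inside, where the mean was above 0. Since the borders were set by H3K27me3 of H3.3K27M, the step of this mark is given by the choice.

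**Figure D5:**
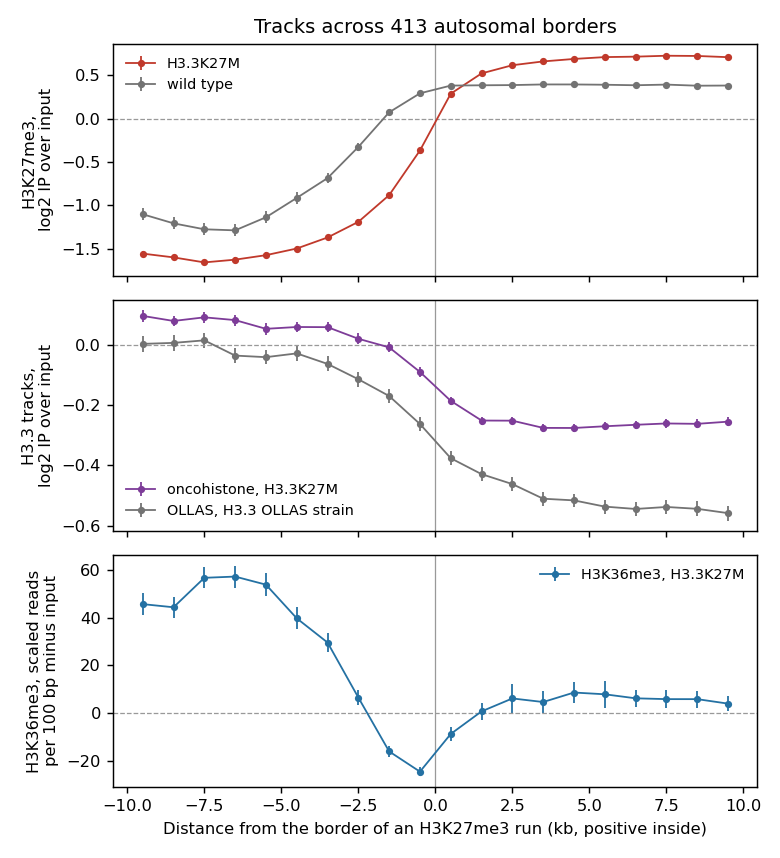
Mean track values in 1 kb bins (y axes) by distance from 413 autosomal borders of H3K27me3 runs (x axis, kb, positive inside); bars are SE over borders. H3K27me3 is shown for H3.3K27M and the wild type, the oncohistone beside the tagged histone of H3.3 OLLAS, and H3K36me3 as input-subtracted signal, which is lowest just outside the border (-24.5).

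Individual regions show the division at its clearest. On each of the 6 chromosomes, the 10 kb bin highest in H3K27me3 was above 0 in H3K36me3 (0.46 to 1.12) and below 0 in the oncohistone (-0.70 to -0.31). On V it lay at 17100001 to 17110000, with 1.42 for H3K27me3, 1.12 for H3K36me3 and -0.42 for the oncohistone. On X it lay at 3740001 to 3750000, with 1.45, 0.82 and -0.41. The longest autosomal runs of H3K27me3 only covered 140 kb each on V, with medians of 0.98, -0.55 and -0.24 (11330001 to 11470000) and of 0.84, -0.63 and -0.28 (14840001 to 14980000). On X the longest such run was 210 kb (6880001 to 7090000), with 1.26, -0.48 and -0.19.

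The opposite state was long on I and III. The longest run of H3K36me3 with the oncohistone was 120 kb on I (13510001 to 13630000), with medians of -2.10 for H3K27me3, 0.67 for H3K36me3 and 0.34 for the oncohistone. The longest run of the oncohistone only was 120 kb on III (11590001 to 11710000), with -1.75, -0.27 and 0.24. The longest run of H3K36me3 only was 80 kb on I (10610001 to 10690000), with -2.23, 0.68 and -0.07. The longest runs above 0 in none covered 100 kb each on I, at -1.52, -0.68 and -0.22 (6610001 to 6710000) and at -1.22, -0.58 and -0.21 (7350001 to 7450000). In the wild type their H3K27me3 was 0.34 in both.

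Shared regions of H3K27me3 and the oncohistone were shorter. The longest on the autosomes covered 50 kb each. That at the right end of I (14920001 to 14970000) had 0.61 for H3K27me3, 0.11 for the oncohistone and 0.52 in the OLLAS track, and that on IV (14580001 to 14630000) had 0.08, 0.20 and 0.26. On X the longest covered 60 kb in 4 places, with H3K27me3 from 1.03 to 1.15, the oncohistone from 0.02 to 0.23 and the OLLAS track from 0.07 to 0.47. The first of these lay at 2030001 to 2090000. All 3 tracks stood above 0 over 20 kb of X at most, in a pair of places. At 7450001 to 7470000 the values were 1.21 for H3K27me3, 0.08 for H3K36me3 and 0.04 for the oncohistone, and at 15600001 to 15620000 they were 1.00, 0.06 and 0.28. The longest X run of both marks without the oncohistone was 50 kb (1640001 to 1690000), with 1.18 for H3K27me3, 0.41 for H3K36me3 and -0.19 for the oncohistone.

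Some of the highest single bins rested on few reads. The bin highest in H3K36me3 on V (2370001 to 2380000, 1.88) had 5 IP reads and 0 input reads, and no reads in the H3K27me3 libraries. That on X (230001 to 240000, 1.88) had 105 IP and 16 input reads. On the other autosomes these bins had at least 10681 IP reads. Those on II, III and IV had H3K27me3 above 0 (0.24, 0.61 and 0.59), and that on I had -2.15. The bins highest in the oncohistone on II (1450001 to 1460000, 1.72) and III (320001 to 330000, 2.28) had 677 and 846 input reads, and the OLLAS track was at -0.40 and -0.14 there. On I and IV the highest oncohistone bins (1.49 and 1.17) were above 0 in the OLLAS track as well, at 0.90 and 1.21. So were those on V (18680001 to 18690000, 1.83) and X (80001 to 90000, 1.08), at 0.50 and 0.59.

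All 20 X bins with H3K27me3 at or below 0 lay in the first 29 bins (bases 1 to 290000) at the left end of the chromosome, in 6 runs; this stretch was singled out after its values were seen. Their medians were -1.41 for H3K27me3, -0.01 for H3K36me3 and 0.26 for the oncohistone, and the oncohistone was above 0 in 18 of the 20. Input was low in part of this stretch. Median H3K27me3 input reads per bin ran from 8107.5 to 23139 over the 6 runs, against 22968 in X bins with H3K27me3 only. Without the bins of lowest input, the oncohistone only class of X held 0.174% in place of 0.565%. H3K36me3 with the oncohistone held 0.464% in place of 0.452%. In the wild type, 14 of the 20 were also at or below 0 in H3K27me3. The longest pair of runs covered 60 kb each, from 1 to 60000 and from 150001 to 210000, with H3K27me3 at -1.64 and -1.91. The OLLAS track followed the oncohistone only in part here, with a median of -0.23 over the 20 bins. In 3 of the 6 runs it stood at -0.29, -0.17 and -0.16, where the oncohistone stood at 0.29, 0.16 and 0.46. In the other runs it had the sign of the oncohistone, at 0.19, 0.06 and -0.74 beside 0.61, 0.14 and -0.10.

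Along the chromosomes, cut into 10 equal parts each, the division was regional. On II, H3K27me3 was above 0 in 69.9% and 56.9% of bins in parts 2 and 3 from the left and in 9.15% and 8.50% in parts 8 and 9. On V it was highest in parts 4 (0.92) and 8 (1.00). Part 9 of V had high medians in both marks (0.66 for H3K27me3 and 0.49 for H3K36me3), and the last part had the highest oncohistone of V (0.22) with an H3K27me3 of -0.33. X had 100% of bins above 0 in H3K27me3 in each part but the first, where it had 88.8%.

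The oncohistone track and the OLLAS track had an r of 0.76 over autosomal bins and 0.77 over X bins, but they parted at the right end of IV. In the last 2 parts of IV (14000001 to 15750000 and 15750001 to 17490000) the oncohistone had medians of 0.08 and 0.09 and the OLLAS track -0.59 and -0.66. H3K27me3 there was -0.28 and -0.24, the highest parts of IV. Of the 57 bins of IV in which H3K27me3 and the oncohistone were both above 0, 14 (24.6%) were above 0 in the OLLAS track. Of all bins of IV, 38.6% were above 0 in it. The cause of this difference between the tracks was not tested.

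Without the mutation the same classes had other sizes on the autosomes. With the marks of the wild type and the tagged histone of H3.3 OLLAS, H3K27me3 only held 29.2% of autosomal bins (15.8% in H3.3K27M), H3K27me3 with the histone 11.1% (3.09%), and none 2.31% (15.8%). H3K36me3 with the histone was near the same, at 21.0% (24.1%). H3K27me3 with H3K36me3 held 14.9% (7.62%). On X, H3K27me3 only held 68.5% (58.5%), H3K27me3 with the histone 22.6% (25.6%), and H3K27me3 with H3K36me3 5.53% (13.3%), so that this last class was the smaller in H3.3K27M on the autosomes and the larger on X. The histone was tracked through different antibodies in the strains, and 1 library a group leaves these differences without a test.

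Bin by bin, the classes that lacked H3K27me3 in H3.3K27M had different origins. Of the 1302 autosomal bins above 0 in none of the tracks, 911 (70.0%) were H3K27me3 only in the division without K27M. Of the 1778 bins with the oncohistone only, 672 (37.8%) had H3K27me3 with the histone, and 72.7% were above 0 in wild-type H3K27me3, against 59.2% of all autosomal bins. Of the 1985 bins with H3K36me3 and the oncohistone, 1416 (71.3%) had H3K36me3 with the histone, and 5.74% were above 0 in wild-type H3K27me3. Of the 629 bins with both marks and without the oncohistone, 547 (87.0%) were in the same class without K27M, where it was larger, at 1232 bins, of which the 547 made up 44.4%. On X, 72 of the 236 bins of this class (30.5%) were in it in both divisions.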

How the data were processed

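Native ChIP-seq tracks of adult nuclei were analysed, grouped by the strain and antibody in the labels, with 1 library per group. The authors mapped paired reads with Novoalign to WBcel215 at default settings, took the maximum number of reads in each bin, scaled the files to equal read numbers and merged replicates that passed quality control (their number and the extent of smoothing are not stated). The deposited log2 tracks hold log2 of IP over input per bin. The deposited score tracks hold scaled IP reads minus scaled input reads per 100 bp. The 2 oncohistone tracks matched no listed library and are used by their name; 2 other such tracks were not used.

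Finer tracks were averaged to the bin compared, with numpy 2.4.6, pandas 2.3.3 and scipy 1.17.1 in Python 3.11.15. The oncohistone level is thus a mean of log2 ratios, and those of the marks are single ratios over 10 kb. Incomplete last bins (6) were left out. Whole reads were solved for each 100 bp bin (at least 99.98% solved, tolerance 2e-08), neighbouring bins can share reads, and log2 ratios of recovered reads have 1 scaled read added. The procedures were tested on simulated data. Bins are not replicates, so shares, medians and correlations over bins carry no test. The regions named were, for each class of at least 1% of the autosomes or X, its longest run, and for each chromosome the bin highest in each track. Members, classes and lists were chosen with earlier results of these data known. No annotation of WBcel215 was used here, so regions are given by position and without genes.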

Additional observations from a re-analysis of the deposited data

How the results depend on the processing

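Values were recomputed under other settings, and the cause of each shift was not tested beyond the setting's own construction. No paired analysis was possible because each group held 1 library, and no library could be left out for the same reason. Differences in median between X and the autosomes kept their direction in all 3 tracks under each setting run for them. In the order H3K36me3 with the oncohistone on the autosomes, H3K27me3 with the oncohistone on the autosomes, H3K27me3 only on X, and H3K27me3 with the oncohistone on X, the percentages were 28.9, 10.4, 45.0 and 32.9 with each track split at its own median, 30.9, 1.11, 52.7 and 21.9 without bins within 0.25 of 0, 36.8, 10.7, 13.8 and 70.7 from recovered reads, and 36.8, 10.8, 13.7 and 70.8 from input-subtracted tracks. With recovered reads for the oncohistone alone they were 32.6, 10.1, 20.3 and 70.7, and for H3K36me3 alone the first and the third were 27.1 and 45.8 (both chosen after seeing the data). With the OLLAS track the autosomal values were 22.1 and 3.09, and with H3K27me3 as the mean of 1 kb bins the shared autosomal value was 3.10. Without the 647 bins of lowest input these shares stayed within their intervals. The correlation of H3K36me3 with the oncohistone on the autosomes was -0.036 with input-subtracted tracks. That of H3K27me3 with H3K36me3 on X was 0.077 as Spearman rho, 0.30 with input-subtracted tracks and 0.093 without the left tip, a setting chosen after seeing the data, and on the autosomes it was -0.11 with input-subtracted tracks. That of H3K27me3 with the oncohistone on the autosomes was -0.67 with input-subtracted tracks and -0.39 in 1 kb bins. On X it was -0.54 as Spearman rho, -0.17 with the OLLAS track, -0.26 in 1 kb bins and -0.49 without the left tip. The H3K27me3 gap between the lowest and the highest autosomal quintile was 2.20 in 1 kb bins (2.60 in 10 kb bins), and the oncohistone step at borders was -0.43 with the OLLAS track (-0.30). Of the further class shares, 76 left the interval of their first value and 50 did not. The depth of H3K36me3, with 24 input reads per 100 bp, limits the classes that rest on it.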
